A study of Mus musculus with 4 samples.

Results

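The T cell receptor beta variable segments are the Trbv genes of the mouse genome. They were taken as every gene row of the count tables whose symbol starts with Trbv, which gave 35 of 32285 genes. The annotation marks 22 of them as genes and 13 as pseudogenes. Each row was counted in T cells from tumors, and segment use was then compared between Cd4 and Cd8 cells, between cell states, and between tumors of control and of B7-H3 knockdown tumor cells.

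A developing T cell builds its beta chain gene by joining 1 V segment to a D and a J segment, and the joined exon is spliced to a constant gene, Trbc1 or Trbc2. The choice of V segment fixes most of the beta chain's outer surface, including loops that touch the MHC molecule. All daughters of a T cell keep its segment, so a clone that grows in a tumor raises the share of its own segment. A library primed at the 3′ end of mRNA reads the V segment, at the 5′ end of the transcript, only rarely. Antibodies name the same proteins by an older Vβ numbering, in which Trbv12-2 and Trbv12-1 are Vβ5.1 and Vβ5.2, and Trbv13-3 and Trbv13-2 are Vβ8.1 and Vβ8.2.

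The cells were live CD3+ T cells sorted from subcutaneous tumors of Tsc2-deficient 105K cells, a mouse renal tumor line, grown in wild-type C57BL/6J mice (6-week-old males per the study's methods). Tumor cells carried either a non-targeting shRNA (sh-NC, called control here) or an shRNA against Cd276, the gene of B7-H3 (sh-B7-H3 (1), called knockdown). B7-H3 is a surface protein of the B7 family, which gives signals to T cells. The shRNA was stably expressed in the tumor cells only, under puromycin selection, and the host's own cells, T cells included, keep the gene. The 80 tumors of each group were pooled and gave 2 libraries per group with RNA and surface antibody tags of the same cells. The sources differ on whether these libraries are lanes of 1 pool or separate samples, and they were taken here as lanes of 1 pool. The libraries of a group may therefore hold cells of the same clone, and the p-values below measure the spread between these libraries, not between mice.

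The libraries held 7030 to 12112 called cells and 79224898 to 132820909 RNA UMIs (unique molecular identifiers, each 1 captured mRNA). After filters and doublet removal, 2549 to 5919 cells remained per library, with a median of 6189 to 8235 UMIs. Between 17 and 35 cell barcodes were shared by any 2 libraries. A Cd4 cell was a cell with at least 1 Cd4 UMI and no UMI of Cd8a or Cd8b1. A Cd8 cell had at least 3 UMIs of Cd8a and Cd8b1 together and no Cd4 UMI. Cd4 cells were split into Foxp3 cells, which had a UMI of the regulatory T cell factor Foxp3, and the others into cells with at least 3 or under 3 UMIs of the cytotoxic granule gene Nkg7. Cd8 cells were split at 20 UMIs of Ccl5, a chemokine of effector T cells. The control libraries held 126 and 117 Cd4 cells with Nkg7 at least 3 and the knockdown libraries 279 and 371, against 1263 and 953 or 243 and 367 cells with Nkg7 under 3. Markers of invariant NKT cells summed to at most 4 CPM (UMIs scaled to a common total in each class and library) in these classes. Genes listed for gamma-delta T cells summed to 251 to 336 CPM in Cd4 cells with Nkg7 at least 3. They summed to 239 to 287 CPM in Cd8 cells with Ccl5 at least 20, and to 6 to 20 CPM in the classes below these limits. Segment UMIs were found in a mean of 34.8 and 31.3% of cells above the Nkg7 and Ccl5 limits, and in 33.9 and 28.3% below them. The part of the gamma-delta genes in the results was not tested.

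All 35 segments lie on chromosome 6 of mm10 (GENCODE vM21), from position 40891229 to 41558452. Trbv31 is the only one on the minus strand. The V exon ends just after the conserved cysteine that opens the third loop of the chain. The letters TGTGCCAGC, which read Cys-Ala-Ser when in frame, were searched on the gene's own strand in the last 30 bases. They were found in 13 of 22 gene segments and 4 of 13 pseudogenes, or 48.6% of all 35. The ends below belong to the segments on which the results turn, and capitals mark those letters:
Trbv2, chr6:41047966-41047995, plus strand: ggccacatacttcTGTGCCAGCagccaaga
Trbv20, chr6:41188948-41188977, plus strand: cagaggcttatatctctgtggtgctaggga
Trbv19, chr6:41179019-41179048, plus strand: tggccgtttttctcTGTGCCAGCagtatag
Trbv15, chr6:41141629-41141658, plus strand: agctgtgtatctgTGTGCCAGCagtttagc
Trbv16, chr6:41152201-41152230, plus strand: agcggtgtatctttgtgcaagcagcttaga
Trbv3, chr6:41048799-41048828, plus strand: gtgtacttcTGTGCCAGCagcttagccaca
Trbv12-1, chr6:41114038-41114067, plus strand: tctgctatgtacttcTGTGCCAGCtctctc
Trbv12-2, chr6:41119335-41119364, plus strand: tctgccgtgtacttcTGTGCCAGCtctctc
Trbv13-2, chr6:41121803-41121832, plus strand: catcagtgtacttcTGTGCCAGCggtgatg

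Trbv12-1 and Trbv12-2 ended in the same letters after the marked run, and their segments were 88.3% identical over the whole length. Trbv13-2 and Trbv13-3 were 90.6% identical, and Trbv13-2 and Trbv13-1 were 88.7% identical. Exact shared stretches were rare, with at most 4 shared windows of 50 bases for any pair among the 12 family and 1 between Trbv13-2 and Trbv13-3. Exchange of reads between such near-identical pairs was not tested.

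Segment UMIs were found in 30.7 and 31.2% of Cd4 and Cd8 cells from control tumors and in 30.2 and 31.2% from knockdown tumors. When each cell was thinned to 1000 UMIs the shares were 5.11 and 4.98% for control and 5.80 and 5.77% for knockdown tumors, with a mean of 5.42%. Segments summed to 49.7 and 49.1 CPM in control and to 58.6 and 58.3 CPM in knockdown libraries. The unthinned shares overlapped between groups. The thinned shares and the CPM values did not (exact permutation p = 0.333, the smallest that 2 against 2 allows), but the groups also differed in class make-up. Within classes at 1000 UMIs the shares overlapped in all Cd4 cells (6.36 and 6.02 against 5.63 and 6.43%) and in Cd8 cells with Ccl5 at least 20 (6.49 and 6.41 against 6.98 and 6.25%). In Cd4 cells with Nkg7 at least 3 they were lower in knockdown, at 7.06 and 7.73 against 5.96 and 6.70%. They were higher in knockdown, without overlap, in all Cd8 cells (4.36 and 4.37 against 5.90 and 5.40%) and in Cd8 cells with Ccl5 under 20 (3.97 and 3.85 against 3.99 and 4.16%). In cells with myeloid markers and no Cd3e, which should hold no receptor, the share was 0 of 23, 1 of 29, 0 of 94 and 0 of 72 cells, at median depths of 1633 to 1992 UMIs against 6560 to 8456 UMIs in the T cells. Among cells with a segment, 78.5 to 80.9% held a single segment UMI and 7.34 to 8.13% held 2 or more different segments. In kept cells the 22 gene segments summed to 6641 UMIs and none was at 0. Among pseudogenes 10 had no UMI, and Trbv12-3, Trbv22 and Trbv24 summed to 40 UMIs.

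A cell was assigned to the segment with strictly the most UMIs, and cells with a tie were left out. This gave 1171 and 959 assigned cells for control and 447 and 661 for knockdown tumors. Shares below are shares of assigned cells, with the mean ± SD over libraries or exact binomial intervals that cover counting error only. They compare the same segment between classes, because segments may be captured with unequal efficiency.

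Trbv2, which codes for Vβ4, had the highest share of assigned cells, at 13.2 and 12.8% of control cells and 15.0 and 15.7% of knockdown cells. Segments may be captured with unequal efficiency, so this order is one of detected RNA and not of use. Trbv3 followed with 8.45, 8.45, 10.51 and 7.26%, and Trbv19, which codes for Vβ6, with 8.28, 8.24, 7.16 and 7.72%. These ranges overlapped, so the order of Trbv3 and Trbv19 was not resolved. Trbv13-2 took 7.94, 7.72, 7.38 and 6.05%, and Trbv12-2 took 6.49, 6.88, 6.04 and 6.35%. Trbv13-1, which codes for Vβ8.3, took 5.47 and 5.84% of control and 6.71 and 7.72% of knockdown cells. Trbv16, which codes for Vβ11, took 5.89, 4.48, 8.05 and 5.90%, and Trbv15 took 7.26, 6.36, 5.82 and 4.08%. None of the 7 segments after Trbv2 reached its share in any library.

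Cd8 cells and Cd4 cells differed in the shares of some segments. The question was which segments go with which coreceptor, since MHC class I and class II select these lineages in the thymus. Of 16 segments tested by edgeR on the summed UMIs of each library, 7 were called (adjusted p under 0.05 and at least 1.5-fold, Benjamini-Hochberg over 10972 genes), against 9.94% of all genes tested in this contrast. Called higher in Cd8 cells were Trbv29, Trbv12-1 and Trbv17, and called lower were Trbv31, Trbv2, Trbv26 and Trbv20. Trbv29, Trbv12-1 and Trbv17 passed the filter on low counts only through Cd8 cells, and Trbv31 and Trbv26 only through Cd4 cells, so the count of 7 is a description and not support. Without that filter, when every segment with a UMI is tested, all 7 were called again, with adjusted p from 1.5e-08 (Trbv2) to 0.0078 (Trbv26) by edgeR. With each library scaled to its summed segment UMIs in place of all UMIs, 8 were called, 5 higher and 3 lower. Trbv12-2 and Trbv16 were added and Trbv20 was lost. The shares of all genes called in the no-filter and scaled fits are not given, so their counts too are a description. The 9 tested segments that were not called had log2 fold changes from -0.51 (Trbv1) to 0.61 (Trbv12-2), and the other 19 of the 35 segments had too few UMIs to be tested.

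Trbv29, which codes for Vβ7, held 5.71% ± 0.56 of Cd8 and 1.55% ± 0.39 of Cd4 cells (SD, n = 4 libraries). Its log2 fold change was 1.86 (SE 0.28, adjusted p = 0.0004 by edgeR). Trbv12-1 held 5.68% ± 1.99 against 1.26% ± 1.21, a log2 fold change of 1.75 (SE 0.42, adjusted p = 0.0092). Trbv17 held 4.02% ± 1.03 against 1.06% ± 0.71, with a log2 fold change of 1.67 (SE 0.34, adjusted p = 0.0035). All 3 were higher in Cd8 cells in 4 of 4 libraries. The neighbour of Trbv12-1 in the same family, Trbv12-2, was also more frequent among Cd8 cells in every library, at 8.42% ± 0.73 against 3.33% ± 1.75, but its level did not pass the test (log2 fold change 0.61, adjusted p = 0.129 by edgeR).

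Trbv31, the segment on the minus strand, which codes for Vβ14, was the mirror case. It held 2.27% ± 0.65 of Cd8 and 5.78% ± 0.69 of Cd4 cells, a log2 fold change of -1.75 (SE 0.27, adjusted p = 0.0005 by edgeR). Trbv2 held 11.2, 10.48, 7.09 and 7.11% of Cd8 cells and 15.9, 16.2, 28.5 and 29.6% of Cd4 cells, in the order control 1, control 2, knockdown 1 and knockdown 2. It was lower in Cd8 cells in every library and by more in the knockdown libraries (log2 fold change -1.36, SE 0.17, adjusted p = 0.0001 by edgeR). These Cd4 cells include those with Nkg7 at least 3, in which Trbv2 was high in knockdown tumors. In Cd4 cells with Nkg7 under 3, Trbv2 took 21.4, 19.9, 13.8 and 14.9% of segment UMIs, in the same order. In Cd8 cells with Ccl5 under 20 it took 11.7, 11.3, 12.9 and 10.9%. The contrast of all cells thus mixes lineage with class make-up. Trbv26, which codes for Vβ3, fell by 1.06 (SE 0.29, adjusted p = 0.0175) and Trbv20 fell by 0.96 (SE 0.21, adjusted p = 0.0060) on the log2 scale. Leaving out any 1 library left 6 of these calls. Those of Trbv20 and Trbv26 each depended on the libraries used. The Trbv26 share was not lower in every library, at 3.02% of Cd8 and 2.78% of Cd4 cells in control library 2. Below the limits Trbv26 took 2.30, 3.40, 3.03 and 5% of segment UMIs in Cd8 and 2.71, 2.30, 4.26 and 4.17% in Cd4 cells. Trbv20 took 4.47, 4.38, 0.76 and 2.27% against 4.63, 4.81, 7.45 and 4.17%. The summed level of all segments was also lower in Cd8 cells in every library, at 49.0 ± 7.77 against 63.2 ± 4.27 CPM.

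**Figure D1:**
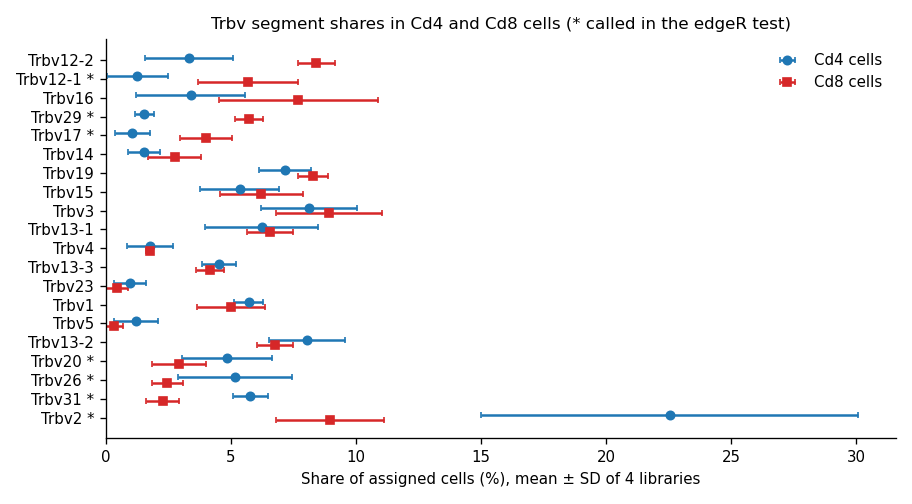
Share of assigned cells (x axis, %) for each segment with at least 20 assigned cells, in Cd4 cells (blue circles) and Cd8 cells (red squares). Points are means and bars are SD over 4 libraries, and asterisks mark the 7 segments called by edgeR, from Trbv29 at 5.71% of Cd8 cells to Trbv2 at 22.6% of Cd4 cells.

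The surface protein gave a second reading of 4 of the segments, since the antibody panel held tags for Vβ5.1/5.2 and Vβ8.1/8.2. A cell was called positive above a threshold set in each library from its tag counts. Cells assigned to Trbv12-1 were Vβ5 positive in 69.0% ± 6.09 and Vβ8 positive in 6.09% ± 1.75 (SD, n = 4 libraries, 168 cells). Cells assigned to Trbv13-2 were Vβ8 positive in 78.7% ± 4.92 (349 cells) and those of Trbv13-3 in 70.1% ± 5.76 (194 cells). Trbv13-1, whose product these antibodies do not name, was Vβ8 positive in 5.67% ± 3.93 (272 cells), and Trbv2 in 4.29% ± 1.95 (654 cells). RNA and protein thus went together for Trbv12-1, Trbv13-2 and Trbv13-3.

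Trbv12-2 behaved otherwise. Of its 293 assigned cells, 18.9, 25.8, 37.8 and 36.1% were Vβ5 positive in the 4 libraries, while 43.4, 40.4, 37.8 and 39.3% were Vβ8 positive. UMIs of Trbv12-2 and Trbv13-2 occurred together in 38 cells, where the product of their shares gives 10.3, a ratio of 3.69. Some pairs with fewer cells had similar ratios, such as Trbv12-2 and Trbv14 with 9 cells where the product gives 2.55 (3.52). Those 38 cells were Vβ8 positive in 79.2% ± 16.4, and none was Vβ5 positive. Trbv12-2 ends 2031 bases before Trbv13-2 starts on the same strand. The equivalent pair Trbv12-1 and Trbv13-1, 1939 bases apart, shared 2 cells where the product gives 3.30. A Trbv12-2 UMI therefore did not mark a Vβ5.1 cell as well as a Trbv12-1 UMI marked a Vβ5.2 cell, and the shares of Trbv12-2 are to be read with that limit. The Vβ5 tag itself was on 13.4% ± 3.01 of Cd8 and 3.77% ± 1.26 of Cd4 cells, higher in 4 of 4 libraries (exact sign-flip test, two-sided p = 0.13, the smallest that 4 libraries allow).

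**Figure D2:**
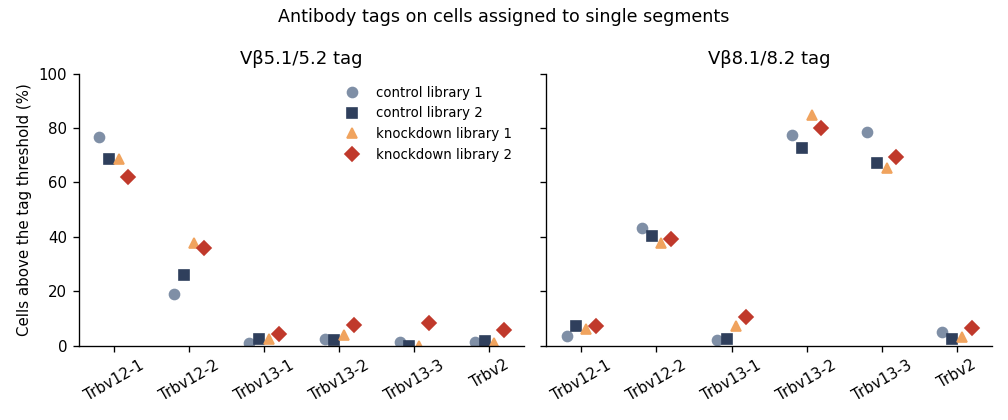
Share of cells above the tag threshold (y axis, %) among cells assigned to each of 6 segments, for the Vβ5.1/5.2 tag (left) and the Vβ8.1/8.2 tag (right), with 1 point per library. Trbv12-1 reads as Vβ5 in 69.0% of cells on average, and Trbv12-2 splits between the tags at 29.7 and 40.3%.

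Foxp3 cells were compared with the other Cd4 cells below the Nkg7 limit. The other Cd4 cells with Nkg7 at least 3 were left out, while Foxp3 cells were not limited by Nkg7. Segments were found in 19.0 to 27.8% of Foxp3 cells, which left 36, 32, 15 and 16 assigned cells. Only Trbv2 had enough UMIs to be tested, and it was called, where 24.8% of genes tested in this contrast were called. Its shares were 11.1, 0, 13.3 and 12.5% in Foxp3 cells and 16.6, 17.1, 10.3 and 13.5% in the others, which overlap, and 0 of 32 cells allows a share of up to 9.38% by the limit of 3 counts, with an exact 95% upper bound of 10.9%. Its level was 6.76, 2.05, 8.60 and 5.95 CPM in Foxp3 cells, on 2 to 7 UMIs, and 13.7, 12.0, 8.08 and 9.89 CPM in the others, on 13 to 134 UMIs. It was lower in 3 of 4 libraries and passed the filter through the other Cd4 cells. The log2 fold change of its level was -1.46 (SE 0.35, adjusted p = 0.0011 by edgeR), and -1.53 (SE 0.34, adjusted p = 8.1e-05) in the fit without the filter. On 2 to 7 UMIs a library and with overlapping shares, this is given as a description of level. The summed level of all segments was also lower, at 50.5 ± 4.49 against 62.4 ± 3.61 CPM, in 4 of 4 libraries. The constant genes Trbc1 and Trbc2 had log2 fold changes of -0.48 and -0.56 in the same contrast, under the 1.5-fold limit. Trbv1, which codes for Vβ2, took 14.8% ± 5.34 of Foxp3 cells against 6.35% ± 0.78, and Trbv26 took 9.91% ± 6.74 against 3.36% ± 0.80. Both were higher in 4 of 4 libraries, on 13 and 9 cells, and were picked out for these values, so no test is given. Between knockdown and control, no segment reached the filter in Foxp3 cells. Without the filter 19 were tested and none was called, with 1 at an unadjusted p under 0.05. The share of all genes called in that fit is not given here, so this count is a description.

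Trbv2 dominated the Cd4 cells with Nkg7 at least 3 of knockdown tumors. It was assigned to 38 of 82 and 57 of 118 cells in the knockdown libraries, or 46.3% (exact 95% interval 35.3 to 57.7) and 48.3% (39.0 to 57.7). In the control libraries it was assigned to 6 of 43 and 9 of 43 cells, or 14.0% (5.30 to 27.9) and 20.9% (10.0 to 36.0). The groups did not overlap, and the difference of the means was 29.9 percentage points (exact permutation p = 0.333, the smallest that 2 against 2 allows). Without doublet removal the difference was 19.4 points, and with at least 2 UMIs of the leading segment it was 38.8 points.

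By level, Trbv2 stood at 12.2 and 23.8 CPM in this class of control tumors and at 30.2 and 39.2 CPM in that of knockdown tumors. Of 3 segments tested, Trbv2 alone was called (log2 fold change 1.05, SE 0.29, adjusted p = 0.0307 by edgeR), where 1.95% of genes were called. Total UMIs of the class were 820381 and 839792 in control and 1853340 and 2499580 in knockdown libraries, so the control values rest on 10 and 20 Trbv2 UMIs. The call was lost under 9 alternatives, each time with the same direction. Those were leaving out control replicate 1 (0.63, adjusted p = 0.622), control replicate 2 (1.65, adjusted p = 0.283) or knockdown replicate 2 (0.83, adjusted p = 0.336), scaling to segment UMIs (adjusted p = 0.173), no doublet removal (0.60, adjusted p = 0.297), no upper limit on detected genes (0.70, adjusted p = 0.0992), a stricter lineage rule and the replicate block (adjusted p = 0.0505 each), all by edgeR, and DESeq2 without its independent filtering (adjusted p = 0.769). DESeq2 with that filtering gave no adjusted p (NA) for any of the 3 segments, of which 2 had an unadjusted p under 0.05.

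Trbv20 and Trbv19 lay the other way in this class. Trbv20 was assigned to 6 and 8 control cells, or 14.0 and 18.6%, and to 1 and 0 knockdown cells, or 1.22 and 0% (0 of 118 allows up to 2.54% by the limit of 3 counts, with an exact upper bound of 3.08%). By UMIs Trbv20 was not absent from knockdown library 2, with 3 UMIs or 1.60% of segment UMIs. It was under the filter and was singled out for these values. Trbv19 took 14.0 and 16.3% of control and 1.22 and 5.08% of knockdown cells, and its level missed the threshold (log2 fold change -1.89, SE 0.59, adjusted p = 0.0618 by edgeR). Trbv13-2 took 11.6 and 14.0% against 9.76 and 5.93% (adjusted p = 0.486 by edgeR), and Trbv26 took 4.65% in both control libraries against 7.32 and 11.0%. Trbv19 and Trbv13-2 passed the filter only through the control libraries, where they are high, so their fits are a description. In the no-filter fit Trbv20 was called along with Trbv2, and Trbv19 was not (adjusted p = 0.0611 by edgeR). The share of all genes called in that fit is not given, and Trbv20 was picked for its values. That call is therefore a description and not support. The Vβ8 tag, which covers Trbv13-2 and Trbv13-3, lay opposite to the Trbv13-2 shares, on 9.52 and 13.7% of cells in control and 19.4 and 18.3% in knockdown tumors (exact permutation p = 0.333, no overlap).

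Cd4 cells with Nkg7 under 3 gave a flatter picture. Trbv2 took 16.6 and 17.1% of them in control and 10.3 and 13.5% in knockdown tumors. Of 14 segments tested, 0 were called by edgeR, where 1.06% of genes were called, and 3 had an unadjusted p under 0.05. DESeq2 gave no adjusted p for any of them, with 1 under that limit. Without independent filtering it called 0, where the share of all genes called is not given. The 3 were Trbv4 (log2 fold change 1.93, adjusted p = 0.0905), Trbv13-1 (1.03, adjusted p = 0.229, and -0.03 without knockdown replicate 2) and Trbv16 (-1.30, adjusted p = 0.267), all by edgeR. Trbv4 passed the filter only through the knockdown libraries and Trbv16 only through the control libraries, in each case the group where it is high.

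Across all 4 libraries, Cd4 cells with Nkg7 at least 3 were set against those under 3. Trbv2 was the only 1 of 4 segments tested that was called (log2 fold change 0.88, SE 0.24, adjusted p = 0.0028 by edgeR), in a contrast that called 36.9% of genes. The Trbv2 share was 14.0 against 16.6% and 20.9 against 17.1% for control tumors and 46.3 against 10.3% and 48.3 against 13.5% for knockdown tumors. The call was lost without knockdown replicate 2 and with DESeq2 (adjusted p = 0.0633 with and without independent filtering). Trbv2 was also the 1 segment of 7 for which the Nkg7 contrast itself differed between groups, by 1.5025 on the log2 scale (SE 0.40, adjusted p = 0.0428 by edgeR, with 0.699% of genes called). This call was lost without control replicate 1 (0.97, adjusted p = 0.575), knockdown replicate 1 (1.54, adjusted p = 0.0946) or knockdown replicate 2 (1.45, adjusted p = 0.420), without doublet removal (adjusted p = 0.146), without an upper limit on detected genes (adjusted p = 0.222) and with a stricter lineage rule (adjusted p = 0.651), all by edgeR. DESeq2 gave no adjusted p, and without independent filtering it called 0 of the 7, with 3 at an unadjusted p under 0.05. The share of all genes called in that DESeq2 fit is not given, so its count is a description. For Trbv20 the same difference was -3.59 (SE 0.98, adjusted p = 0.0548), and for Trbv19 it was -2.49 (SE 0.75, adjusted p = 0.115). Trbv20 gained the call under 5 of 15 alternatives, with adjusted p from 0.0119 without doublet removal to 0.0487 without the filter. Its level was 7.31 and 13.1 CPM in control cells with Nkg7 at least 3 and 0.54 to 4.35 CPM in all other sums. The fits of Trbv20 rest on the cells where it is high, so they are a description.

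Read the other way, the share of Trbv2 cells that lay above the Nkg7 limit was 8.11% (6 of 74) and 14.1% (9 of 64) in control and 84.4% (38 of 45) and 78.1% in knockdown tumors. Over all segments these shares were 9.47, 11.8, 54.7 and 49.8%. Trbv2 cells were therefore near the average of Cd4 cells in control tumors and above it in both knockdown libraries. This was not particular to Trbv2, since Trbv26 lay at 66.7% (6 of 9) and 76.5% (13 of 17) in the knockdown libraries. Trbv13-2 lay at 66.7 and 46.7% there, while Trbv19 (10.0 and 42.9%) and Trbv20 (16.7 and 0%) lay below the average. The average over all segments includes the Trbv2 cells.

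**Figure D3:**
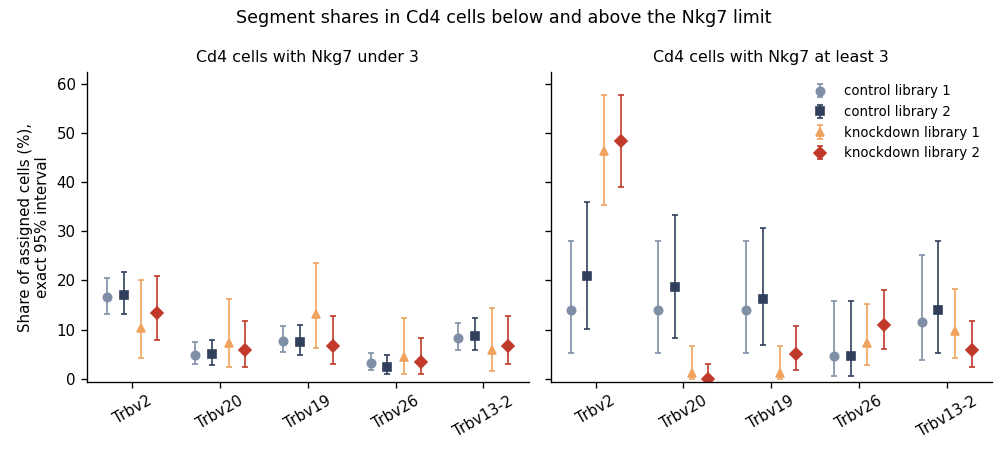
Share of assigned cells (y axis, %) for 5 segments in Cd4 cells with Nkg7 under 3 (left) and at least 3 (right), with 1 point per library and exact 95% binomial intervals. On the right Trbv2 lies at 46.3 and 48.3% in the knockdown libraries and at 14.0 and 20.9% in the control libraries.

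In Cd8 cells the 2 Ccl5 classes were compared in the same way. By share of cells Trbv15 was more frequent above the limit in every library, at 22.1 against 5.63% and 13.7 against 3.42% in control and 6.77 against 5.56% and 6.15 against 1.83% in knockdown tumors. By share of segment UMIs knockdown library 1 went the other way, with Trbv15 at 6.50% above and 7.58% below the limit. Trbv15 was called (log2 fold change 1.94, SE 0.31, adjusted p = 0.0002 by edgeR). It passed the filter only through the cells above the limit, and without the filter it was called at 1.88 (SE 0.25, adjusted p = 7.8e-13). Trbv13-2 was called at 0.73 (SE 0.23, adjusted p = 0.0186), and this call was lost under 6 alternatives, among them the one without control replicate 1, both DESeq2 fits and scaling to segment UMIs (0.41, adjusted p = 0.158 by edgeR), which sets aside the rise of all segments together given below. The Vβ8 tag, which covers Trbv13-2 and Trbv13-3, went the other way, on 15.3, 13.6, 12.4 and 15.0% of cells above the limit and 17.7, 15.3, 16.8 and 19.9% below it, lower in 4 of 4 libraries (exact sign-flip p = 0.13). Those were the 2 calls among 10 segments tested, in a contrast that called 31.2% of genes. Trbv26 took 2.11, 3.87, 4.44 and 5.49% of cells below the limit and 0, 0, 1.04 and 1.23% above it, and Trbv12-1 took 5.99, 6.83, 5.56 and 10.4% below and 0.88, 1.61, 2.60 and 6.97% above. Both were lower above the limit in 4 of 4 libraries, were under the filter, and were called lower in the fit without it. The summed level of all segments was higher above the limit, at 65.1 ± 4.96 against 40.7 ± 1.5 CPM, in 4 of 4 libraries.

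The Cd8 cells with Ccl5 at least 20 differed in segment use between the groups. Of 12 segments tested, 5 were called, 3 higher and 2 lower in knockdown, against 3.89% of all genes tested in this contrast. Trbv16 was assigned to 1 of 113 and 2 of 124 control cells, or 0.88 and 1.61%, and to 22 of 192 and 27 of 244 knockdown cells, or 11.5 and 11.1%. Its log2 fold change was 3.01 (SE 0.51, adjusted p = 0.0001 by edgeR). Trbv3 took 4.42 and 7.26% against 14.6 and 10.3% (log2 fold change 1.73, SE 0.38, adjusted p = 0.0016), and Trbv17 took 0.88 and 1.61% against 4.17 and 5.33% (2.11, SE 0.60, adjusted p = 0.0162, edgeR). Trbv16 and Trbv17 rested on 1 and 4 UMIs each in the control libraries. These 2 and Trbv3 passed the filter only through the knockdown libraries, where they are high, so their calls and the count of 5 are a description. In the fit without the filter their adjusted p were 5.6e-08 (Trbv16), 0.0072 (Trbv17) and 5.5e-05 (Trbv3) by edgeR.

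Trbv15 and Trbv2 went the other way in these cells. Trbv15 took 22.1 and 13.7% of control against 6.77 and 6.15% of knockdown cells (log2 fold change -1.41, SE 0.30, adjusted p = 0.0010 by edgeR). Trbv2 took 15.9 and 14.5% against 6.77 and 5.74% (log2 fold change -1.12, SE 0.29, adjusted p = 0.0070 by edgeR), the opposite of its direction in Cd4 cells with Nkg7 at least 3, though this pair of effects was not tested against each other. DESeq2 gave no adjusted p for any of the 12, with 5 at an unadjusted p under 0.05. Without its independent filtering it called only Trbv16 (adjusted p = 0.0178), where the share of all genes called is not given. The Trbv2 call was lost without control replicate 2 (-1.07, adjusted p = 0.0508), without knockdown replicate 2 (-0.88, adjusted p = 0.156) and without an upper limit on detected genes (-0.74, adjusted p = 0.0542), all by edgeR. Without control replicate 1 the calls of Trbv15 (-0.99, adjusted p = 0.111) and Trbv17 (1.51, adjusted p = 0.249) were lost. Without knockdown replicate 1 those of Trbv3 (1.41, adjusted p = 0.0975) and Trbv17 (2.25, adjusted p = 0.137) were lost, and without knockdown replicate 2 Trbv17 was under the filter. Among the other receptor genes, Trbc1 rose by 0.90 on the log2 scale in the same cells (adjusted p = 8.0e-16 by edgeR) and Trbc2 did not pass the test (0.07, adjusted p = 0.241).

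Below the Ccl5 limit, of 16 segments tested, 0 were called by edgeR, where 2.26% of genes were called. An unadjusted p under 0.05 was found for 2, Trbv19 (log2 fold change 0.68, adjusted p = 0.194) and Trbv20 (-1.20, adjusted p = 0.215). Trbv20 passed the filter only through the control libraries, where it is high, on 27 to 35 UMIs against 1 to 5 in knockdown, so its fit is a description. DESeq2 gave no adjusted p and had 0 under that limit. Without independent filtering it called 0, where the share of all genes called is not given. Trbv16 took 7.39, 4.78, 11.1 and 6.1% of these cells, and Trbv15 took 5.63, 3.42, 5.56 and 1.83%, with overlap between the groups. The difference between groups in the Ccl5 contrast was called for 1 of 13 segments, Trbv3, at 2.04 (SE 0.50, adjusted p = 0.0220 by edgeR, with 1.60% of genes called). It was lost without control replicate 1 (1.83, adjusted p = 0.167), without knockdown replicate 1 (1.96, adjusted p = 0.0898) and with the limits doubled (adjusted p = 0.0563), all by edgeR. DESeq2 gave no adjusted p, and without independent filtering it called 0 of the 13, with 1 at an unadjusted p under 0.05. The share of all genes called in these DESeq2 fits is not given, so their counts are a description. Trbv16 came to 2.36 (SE 0.70, adjusted p = 0.0759) and Trbv2 to -1.32 (SE 0.39, adjusted p = 0.0765). Trbv16 gained the call under 7 of 14 alternatives, with adjusted p from 0.0067 without control replicate 2 to 0.0452 with scaling to segment UMIs, and was at 0.702 without control replicate 1. Trbv2 gained it under 1 alternative.

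**Figure D4:**
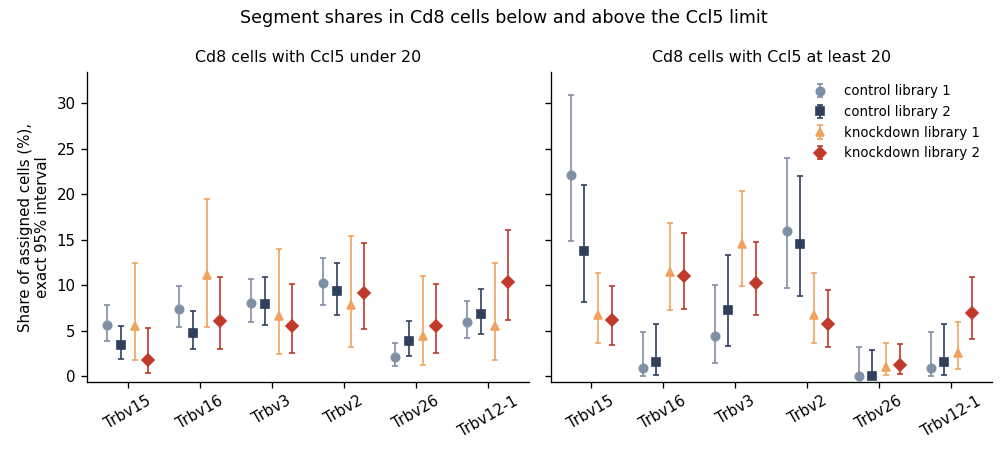
Share of assigned cells (y axis, %) for 6 segments in Cd8 cells with Ccl5 under 20 (left) and at least 20 (right), with 1 point per library and exact 95% binomial intervals. On the right Trbv16 lies at 11.5 and 11.1% in knockdown and at 0.88 and 1.61% in control libraries, and Trbv15 is highest in the control libraries at 22.1 and 13.7%.

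The evenness of segment use was summarised as the effective number of segments, the inverse of the chance that 2 random assigned cells share a segment. The chance was estimated without bias from cell numbers, which does not hold for its inverse. In Cd4 cells with Nkg7 at least 3 the effective number was 12.7 and 8.68 in control and 4.21 and 3.87 in knockdown libraries, a difference of -6.66. These values rest on 43 assigned cells in each control library and on 82 and 118 in the knockdown libraries. In Cd4 cells with Nkg7 under 3 it was 13.1 in both control libraries and 17.0 and 15.6 in knockdown libraries. The groups did not overlap in either class and lay in opposite order, at p = 0.333 each (exact permutation, the smallest possible). Foxp3 cells had 14.3 and 15.0 against 13.1 and 13.3, on only 36 and 32 against 15 and 16 assigned cells. Cd8 cells with Ccl5 under 20 had 16.2, 16.6, 16.8 and 16.6, nearly the same in all 4 libraries. Those with Ccl5 at least 20 had 8.74 and 12.6 in control and 13.6 and 14.9 in knockdown libraries, without overlap and higher in knockdown. Within libraries the effective number was lower above than below the limit in 4 of 4 libraries for both Nkg7 and Ccl5. The means were 7.37 ± 4.18 against 14.7 ± 1.94 and 12.5 ± 2.66 against 16.5 ± 0.28 (exact sign-flip p = 0.13 for each). For Nkg7 the values of control library 1 were nearly the same, at 12.7 above and 13.1 below the limit.

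**Figure D5:**
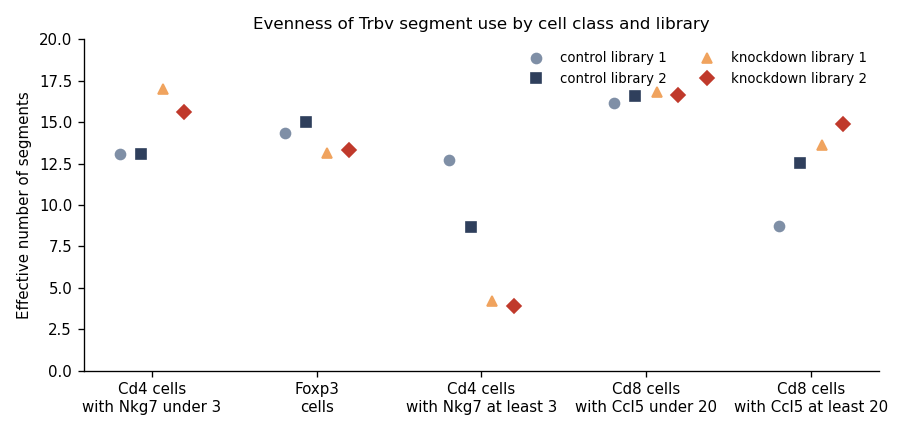
Effective number of segments (y axis) in 5 cell classes, with 1 point per library and no error bars. Cd4 cells with Nkg7 at least 3 lie at 12.7 and 8.68 in control and at 4.21 and 3.87 in knockdown libraries, and Cd8 cells with Ccl5 at least 20 lie in the opposite order.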

How the data were processed

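CITE-seq (RNA and antibody tags of the same single cells) was analysed in 4 libraries of CD3+ T cells, 2 per group. The authors deposited filtered matrices of UMI counts per gene and tag, made with Cell Ranger against mm10 (the matrix header names version 6.1.1, and the labels add Seurat 4.0.0), with no normalization. Cell Ranger counts reads that map to 1 gene only, so reads shared by near-identical segments are lost.

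Kept cells had 200 to 3000 detected genes, with mitochondrial UMIs at no more than 5%, and simulated doublets were used to remove 21.6 to 27.2% of them. Classes, segment assignment and limits are as given in the report. UMIs were summed per library and class and tested by edgeR 4.0.16 (quasi-likelihood, TMM, filterByExpr, R 4.3.3) over all genes, with library as block for class contrasts and none between groups. The script was tested on simulated data with known changes. Shares were compared by exact permutation. DESeq2 1.42.0 (also without independent filtering, added after the data were seen), other filters and scalings, doubled limits and leaving out each library were tried. The labels' replicate numbers did not pair the libraries (correlations of deviations of -0.053 to 0.018 in 5 classes). Tag thresholds came from Otsu's method on log tag counts. Segment sequences came from GENCODE vM21 transcripts.

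Named in full are the 8 segments with the highest mean share and, per contrast, at most 5 called segments of largest change. Other segments are named as well, and not each of them is said in the text to be outside this rule. The members and lists were chosen with earlier results of these data known, and receptor partners and tag pairs were looked at after the values were seen.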

Additional observations from a re-analysis of the deposited data

Results flagged for a closer look

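2 segments had a class contrast that differed between knockdown and control tumors, by a test of the difference itself in edgeR. For Trbv2 in Cd4 cells, the Nkg7 contrast was larger in knockdown tumors by 1.5025 on the log2 scale (SE 0.40, adjusted p = 0.0428). The call was lost under 7 alternatives, and leaving out each library gave adjusted p from 0.0946 to 0.575 in the 3 fits of 4 that lost it. The Trbv2 share above the Nkg7 limit was higher than below it in 2 of 2 knockdown and 1 of 2 control libraries. For Trbv3 in Cd8 cells, the Ccl5 contrast was larger in knockdown tumors by 2.04 (SE 0.50, adjusted p = 0.0220), lost under 4 alternatives, among them those without control replicate 1 or knockdown replicate 1. The Trbv3 share was 14.6 against 6.67% and 10.3 against 5.49% in the knockdown libraries and 4.42 against 8.1% and 7.26 against 7.97% in the control libraries.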

How the results depend on the processing

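Among the segments whose log2 fold change is given, 1 changed sign under the alternatives tried: Trbv13-1, knockdown against control in Cd4 cells with Nkg7 under 3, was -0.0345 without knockdown replicate 2 and up to 1.46 with another library left out. The counts of called segments moved as follows. The number tested and the share of all genes called are not given for these fits or for those without 1 library. The counts therefore describe the fits and are not results about the segments. With DESeq2 they were 0 for the Nkg7 contrast and 1 for the Ccl5 contrast. For knockdown against control and both group differences DESeq2's independent filtering left every segment without an adjusted p (NA), so these are not counted as lost calls. DESeq2 without independent filtering, chosen after seeing the data, gave 0 for the Nkg7 contrast, 1 for the Ccl5 contrast, 0 for knockdown in Cd4 cells with Nkg7 at least 3, 1 in Cd8 cells with Ccl5 at least 20 and 0 for both group differences. Without TMM they were 5 for the Ccl5 contrast, 2 for knockdown in Cd4 cells with Nkg7 at least 3 and 2 for the group difference of the Nkg7 contrast. Scaled to summed segment UMIs they were 1 for the Ccl5 contrast, 0 for knockdown in Cd4 cells with Nkg7 at least 3 and 2 for the group difference of the Ccl5 contrast. Without a filter they were 2 for Foxp3 cells, 5 for the Nkg7 contrast, 4 for the Ccl5 contrast, and 2 each for knockdown in Cd4 cells with Nkg7 at least 3 and both group differences. Without an upper gene limit they were 1 for the Ccl5 contrast and 0 and 2 for the group differences of the Nkg7 and Ccl5 contrasts. For the group difference of the Nkg7 contrast, stricter lineage gave 0, and 1-segment cells alone or keeping Foxp3 cells gave 2. For that of the Ccl5 contrast, no doublet removal or 1-segment cells alone gave 2. Doubled limits gave 2 for knockdown in Cd4 cells with Nkg7 at least 3. The causes were not tested, except that fewer or more segments passed the filter in several of these fits.

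Leaving out 1 library gave counts of 6 for Cd8 against Cd4, 1 for Foxp3 cells, 0 to 1 for the Nkg7 contrast, 1 to 3 for the Ccl5 contrast, 0 to 1 for knockdown in Cd4 cells with Nkg7 at least 3, 3 to 4 in Cd8 cells with Ccl5 at least 20, and 0 to 1 and 0 to 2 for the group differences of the Nkg7 and Ccl5 contrasts. The difference in Trbv2 share then ranged from 26.4 to 33.4 points, the effective number difference in the same cells from -8.68 to -4.64, the detected share from 30.7 to 31.0%, and the area under the curve of the Vβ8 tag from 0.880 to 0.889.

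With the replicate number as a block, knockdown against control in Cd4 cells with Nkg7 at least 3 gave 0 calls in place of 1 and the other classes gave the same counts. The median log2 fold change over all genes shifted by up to 0.37 without TMM and 0.62 with scaling to segment UMIs, both in class contrasts.

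The Trbv2 difference of 29.9 points was 38.8 with at least 2 UMIs and 19.4 without doublet removal, and the detected share was 5.42% at 1000 UMIs. Some small differences in effective number turned, to 1.01 (at least 2 UMIs) and across -1.23 to 0.18 (leaving out 1 library) in all Cd8 cells, to 0.18 (1-segment cells) and 0.48 (no doublet removal) in Foxp3 cells, and to -1.62 (at least 2 UMIs), -0.19 (UMI shares) and -0.35 (doubled limits) in Cd8 cells with Ccl5 under 20. Depth limits every segment: most cells with a segment rest on 1 UMI, and low segments could not be tested.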

Other observations

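The alpha chain and the constant gene of the same cells were looked at for the segments that differed most. J segment UMIs were seen in only 0, 2, 0 and 1 assigned cells, so the join itself was not read, while Trav UMIs were seen in 418, 342, 157 and 248. Trbc1 and Trbc2 are near-identical, as are several Trav copies, so these counts are uncertain. No Trav counts of cells with other Trbv segments are set beside those below, so no Trav partner is read as particular to a Trbv segment. In knockdown Cd4 cells with Nkg7 at least 3 that used Trbv2, Trav13n-1 led in 6 and 5 and Trav3-3 in 3 and 7 of the 15 and 19 cells with a Trav segment. Trbc1 led over Trbc2 in 20 of 38 and 38 of 55 of these Trbv2 cells, or 52.6 and 69.1%, against 29.5 and 40.4% for the other segments in the same class. In Trbv2 cells with Nkg7 under 3 it led in 25.8, 17.3, 16.7 and 6.25%.

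Partners were also counted in the Cd8 cells with Ccl5 at least 20. Among Trbv15 cells of this class Trbc1 led in 0 of 25, 0 of 17, 1 of 13 and 1 of 15, against 10 of 32, 4 of 15, 2 of 5 and 1 of 3 Trbv15 cells with Ccl5 under 20. Trav8d-2 led in 5 of 7 and 7 of 10 of the knockdown Trbv15 cells with a Trav segment, and in fewer than 2 cells of either control library. Trbv2 cells of this class paired with Trav16n in 3 of 9 and 3 of 5 control cells and in 6 of 7 and 4 of 4 knockdown cells. Trbc1 led in 11.8 and 0% of these Trbv2 cells in control and in 69.2 and 61.5% in knockdown libraries.

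Within knockdown Cd4 cells with Nkg7 at least 3, cells using Trbv2 held 1 and 2 UMIs of Gzmb, the granzyme B gene, in 38 and 57 cells, against 8 and 11 UMIs in 44 and 61 cells using other segments, counts too low to compare. Their Ccl5 level was 11666 and 11351 against 20561 and 18570 CPM, and their Nkg7 level was 5327 and 4977 against 6257 and 5639 CPM. In the control libraries, where 6 and 9 cells used Trbv2, Gzmb had 42 and 12 UMIs, against 24 and 36 in 37 and 34 cells using other segments. These are values of 2 libraries per group, chosen after they were seen and given with no test. The other effector genes looked at, Gzmk, Prf1 and Ifng, are not given here, and Nkg7 also set the class limit. The values are therefore no account of the effector state of Trbv2 cells.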
